A study of Rattus norvegicus with 8 samples.

Results

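The genes described here encode subunits of respiratory complexes II to V, measured in rat frontal cortex. A probe set of the array was a member if the platform annotation gave it exactly 1 gene symbol and that symbol was Sdha, Sdhb, Sdhc, Sdhd, Cyc1 or Cycs, or began with Uqcr, Atp5, or Cox followed by 4, 5, 6, 7 or 8. This gave 51 member probe sets for 45 genes among the 31042 probe sets that were not controls, of which 20826 carried 1 symbol, with 5 probe sets for complex II, 9 for complex III, 17 for complex IV and 20 for complex V. A further 7 probe sets carried a member symbol together with other symbols and were not used, among them every probe set listed for Cycs, so cytochrome c was not analysed here. The rule also took in 2 symbols that are not ordinary subunits, the pseudogene symbol Cox6c-ps1 and Cox7a2l, whose product helps to join complexes III and IV into supercomplexes.

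Complex II, succinate dehydrogenase, passes electrons from succinate to ubiquinone and is also an enzyme of the tricarboxylic acid cycle. Complex III passes them on to cytochrome c, and complex IV, cytochrome c oxidase, passes them to oxygen. The proton gradient built up by the chain drives complex V, the ATP synthase, and neurons take most of their ATP for ion pumping and synaptic transmission from this route. Most subunits are encoded in the nucleus, and several subunits of complex IV have separate genes for a general form and for a form typical of muscle or testis.

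The animals were male rats of the outbred Sprague-Dawley strain that weighed about 200 g at the start. They were randomly given intraperitoneal saline (n = 20) or 2 mg/kg/day of olanzapine (n = 20), an antipsychotic drug with affinity for dopamine and serotonin receptors, over 21 days. Frontal cortex of 4 rats per group went onto arrays, which are called here by group and the number in their title: saline 14, 15, 17 and 19, and olanzapine 9, 14, 18 and 19. The question posed by the design is which cortical transcripts differ after repeated olanzapine, and the values here are the part of the answer that concerns these complexes.

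The deposited values were linear intensities already scaled to a common trimmed mean, which was 500.1 to 500.2 on every array. Array medians ran from 159 to 191. The ratio of the 3' to the 5' control probe set, a sign of RNA integrity, was 7.74 to 29.4 in saline and 9.18 to 20.6 in olanzapine for beta-actin, and 4.55 to 5.99 and 3.62 to 5.80 for Gapdh. The 3' value thus exceeded the 5' value on every array. The beta-actin ratio of 29.4 was that of saline 19, with 7.74 to 16.7 in the other saline arrays. For Gapdh saline 19 had the lowest ratio in saline, 4.55. The brightest 5% of tested probe sets stood apart by array: their median log2 deviation from the mean over the 8 arrays was 0.13, 0.14 and 0.12 in saline 14, 15 and 17, but -0.058 in saline 19 and -0.13 to -0.050 in olanzapine. With the brightest probe set of each gene, summed intensities of the 7 neuron markers were 36083 to 43487 in saline and 33855 to 36441 in olanzapine, with 4 of the 7 lower in olanzapine, and those of the 7 astrocyte markers 47925 to 55534 and 42455 to 48288, with 7 of 7 lower. Over all tested probe sets of the astrocyte markers 9 of 12 were lower, and 7 of 12 after quantile normalization. Markers of neurons and astrocytes were thus abundant, as in brain tissue. The 7 microglia markers, 4 of them left by the filter, summed to 1026 to 1331 in saline and 1000 to 1445 in olanzapine. The 7 meningeal markers, all higher in olanzapine, summed to 2251 to 2882 and 2992 to 8135. The 6 oligodendrocyte markers summed to 14969 to 26043 in saline and 16512 to 23786 in olanzapine, and no marker was at 0. The part of cell composition in the results below was not tested, and in whole tissue fewer cells of a type and less RNA per cell cannot be told apart.

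No member passed the test between olanzapine and saline. After a filter on dim probe sets 48 member probe sets of 42 genes remained, and with limma and Benjamini-Hochberg adjustment over all 18625 tested probe sets 0 of the 48 had an adjusted p under 0.05, with 0% called over all tested probe sets. The smallest adjusted p among members was 0.330, for Cox7b. At an unadjusted p under 0.05, 7 members were lower in olanzapine (Cox7b, Cox6c, Atp5f1e, Atp5mc3, Atp5mk, Cox5a and Atp5mf), 14.6% of 48 against 3.73% of all tested probe sets. In the higher direction there was 1 member, Uqcrfs1, beside 4.59% of all tested probe sets, and in either direction 8 members (16.7%) beside 8.32%. Of the 48 members 32 were lower and 16 higher, whatever the size, whereas 44.0% of all tested probe sets were lower. The median log2 difference was -0.052 over members and 0.027 over all tested probe sets, on the scale of log2(intensity + 63.4), which understates differences of dim genes.

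**Figure D1:**
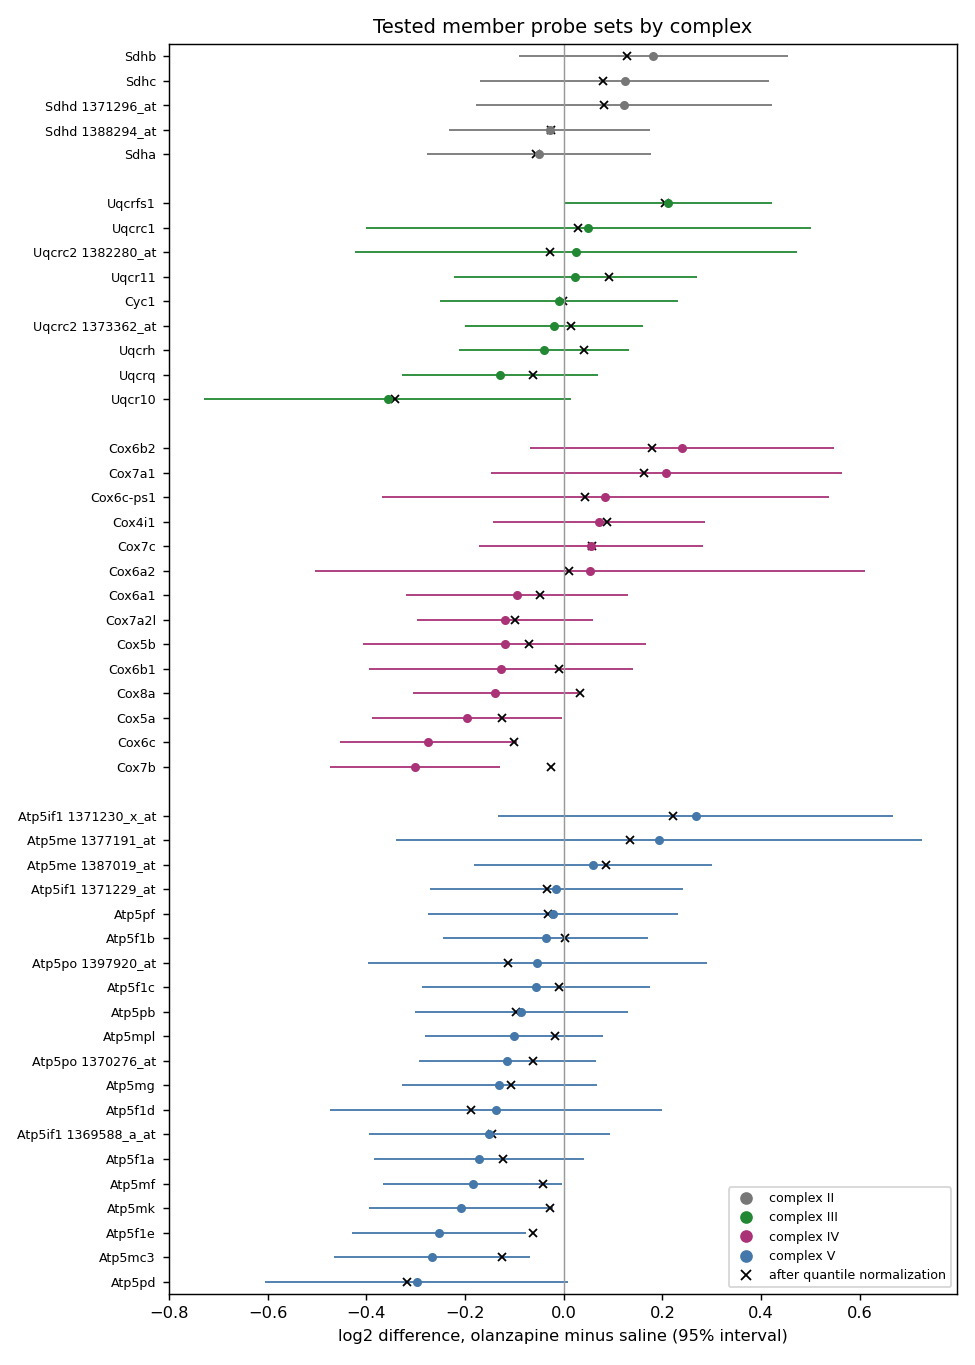
The log2 difference of olanzapine minus saline (x axis) is drawn for the 48 tested member probe sets (y axis) as points with 95% intervals from limma, coloured by complex, and crosses give the same difference after quantile normalization. Points of complex V lie mostly below 0 (17 of 20), those of complex II on both sides (2 of 5 below 0), and the crosses of Cox7b, Cox6c and Atp5f1e lie nearer to 0 than their points.

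The 4 olanzapine values all lay below the 4 saline values for 4 members, Cox7b, Cox6c, Atp5f1e and Cox7a2l, or 8.33% of 48 against 2.07% of all tested probe sets. Cox7b, Cox6c and Atp5f1e were 3 of the 10 members (30.0%) in the brightest 5% of tested probe sets. In that class 18.6% of all 932 probe sets were apart in this direction. Cox7a2l was 1 of the 38 members outside it (2.63%). The olanzapine values all lay above the saline values for 2 members, Uqcrfs1 and Cox6b2, against 2.40% of all tested probe sets. To show the genes whose groups did not overlap as deposited, the 150 bases before the annotated start are shown for all but Cox6c, from RefSeq on the GRCr8 assembly, written along the gene's strand. Capitals mark matches on either strand to GGGCGG, a GC box of the SP1 type.
Cox7b, chrX:75148886-75149035, plus strand: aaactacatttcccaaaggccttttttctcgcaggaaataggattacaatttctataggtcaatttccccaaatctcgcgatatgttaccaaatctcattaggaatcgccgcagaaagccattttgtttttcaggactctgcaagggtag
Atp5f1e, chr3:183680173-183680322, minus strand: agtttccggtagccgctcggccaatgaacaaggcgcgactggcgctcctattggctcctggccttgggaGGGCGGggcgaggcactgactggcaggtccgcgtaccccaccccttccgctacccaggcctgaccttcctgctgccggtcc
Cox7a2l, chr6:16936424-16936573, plus strand: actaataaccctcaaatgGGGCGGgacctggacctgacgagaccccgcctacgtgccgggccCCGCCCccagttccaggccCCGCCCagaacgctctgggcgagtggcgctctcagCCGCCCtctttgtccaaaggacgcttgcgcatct
Uqcrfs1, chr17:34186452-34186601, plus strand: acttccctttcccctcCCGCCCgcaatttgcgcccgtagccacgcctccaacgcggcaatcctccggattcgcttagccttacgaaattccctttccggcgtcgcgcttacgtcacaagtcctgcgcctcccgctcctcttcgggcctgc
Cox6b2, chr1:78122721-78122870, plus strand: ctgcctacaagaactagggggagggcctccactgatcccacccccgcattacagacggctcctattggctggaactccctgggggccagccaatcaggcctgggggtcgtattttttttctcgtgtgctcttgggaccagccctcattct
The Cox7b and Cox6b2 windows held no match to this or to any of the other motifs searched, while that of Cox7a2l held 4 GC boxes.

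Promoter entries were found for 38 of the 45 member genes, and the 250 bases before the start were searched on both strands. The site of nuclear respiratory factor 1, here GCGCA and GCGC with any 1 base between them, occurred in 5 member promoters (13.2%) and in 5.07% of 21851 protein-coding promoters of the same length. CCGGAAG, an ETS site of the kind bound by GABPA, occurred in 12 (31.6%) and in 9.01%. The GC box occurred in 14 (36.8%) and in 38.9%, and AAGATGGC, a YY1 site, in 2 (5.26%) and in 1.64%. By complex, the ETS site was in 2 of 4 promoters for complex II, 3 of 6 for complex III, 2 of 13 for complex IV and 5 of 15 for complex V. The nuclear respiratory factor 1 site was in 0 of the 13 promoters for complex IV and in 3 of 15 for complex V. A match describes these letters only, and none of the 5 promoters printed above held the ETS or the nuclear respiratory factor 1 site.

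In complex II 3 of 5 probe sets were higher in olanzapine and none passed. The median log2 difference over its 5 probe sets was 0.12. Sdhb, the iron-sulfur subunit, was at 425, 449.6, 456 and 495 in saline 14, 15, 17 and 19 and at 461, 585, 513 and 550.2 in olanzapine 9, 14, 18 and 19. Olanzapine 14, 18 and 19 lay above every saline array and olanzapine 9 lay within the saline range. This made a log2 difference of 0.18 (SE 0.13), a 1.13-fold ratio with a 95% interval of 0.938 to 1.37, and the limma adjusted p was 0.764. Sdhc, a membrane anchor, was at 629 ± 110.0 on the saline arrays and 686 ± 66.0 on the olanzapine arrays (SD, n = 4 per group), a log2 difference of 0.12 (SE 0.14). The other anchor, Sdhd, had 2 probe sets that differed in sign, at 0.12 (SE 0.14) for the dimmer and -0.029 (SE 0.10) for the brighter. Sdha, the flavoprotein that oxidises succinate, differed by -0.050. Leaving out saline 17, saline 19 or olanzapine 18 lowered the complex II median to 0.044, 0.031 and 0.049, and leaving out saline 15 raised it to 0.16. The size of the median thus varied with the arrays included.

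In complex III the Rieske iron-sulfur protein gene Uqcrfs1 and the small subunit gene Uqcr10 stood at opposite ends. Uqcrfs1 was at 1340, 1293, 1156 and 1200 in saline 14, 15, 17 and 19 and at 1492, 1504, 1443 and 1374 in olanzapine 9, 14, 18 and 19, every olanzapine array above every saline array. Olanzapine minus saline was 0.21 on the log2 scale (SE 0.10), 1.16-fold, with an unadjusted p of 0.0483 and a limma adjusted p of 0.596. It was 0.20 after quantile normalization and 0.18 to 0.25 with single arrays left out.

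Uqcr10 had the lowest log2 difference among the 48 tested members, -0.36 (SE 0.17), and a limma adjusted p of 0.627. It was at 1909, 2821, 3885 and 2148 in saline and at 2033, 2040, 2347 and 1676 in olanzapine. Saline 17 was far above every other array, saline 14 lay below 3 of the 4 olanzapine arrays, and without saline 17 the difference was -0.17. After quantile normalization it was -0.34. Uqcrq, another small subunit gene, differed by -0.13 (SE 0.09). Of Uqcrc2, a core protein gene, the brighter probe set was at 3127 ± 77.8 in saline and 3087 ± 185 in olanzapine (n = 4 each), with a ratio of 0.986 and a 95% interval of 0.871 to 1.12. Its dimmer probe set differed by 0.025 (SE 0.21). The remaining genes Cyc1, Uqcr11, Uqcrc1 and Uqcrh had log2 differences of -0.040 to 0.050. The median of complex III was -0.0098 as deposited and 0.015 after quantile normalization.

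Complex IV, where 8 of 14 tested probe sets were lower and the median was -0.11, held the members with the smallest p. At an unadjusted limma p under 0.05, 3 of the 14 (21.4%) were lower. These counts stand beside 44.0% and 3.73% of all tested probe sets. Cox7b and Cox6c are among the 4 of the 14 in the brightest 5%, where the shares were 88.7% and 38.4%. Cox7b, a small subunit of the oxidase, was at 16940, 17768, 17028 and 14356 in saline 14, 15, 17 and 19 and at 12926, 12612, 13963 and 13968 in olanzapine 9, 14, 18 and 19. All olanzapine arrays lay below all saline arrays, and saline 19 lay nearer to olanzapine than to the other saline arrays. The log2 difference was -0.30 (SE 0.08), a ratio of 0.812 with a 95% interval of 0.720 to 0.914, with an unadjusted p of 0.00197 and the adjusted p of 0.330 given above. Without saline 19 the difference was -0.37 and the limma adjusted p 0.0222, in a setting where 106 of all 18625 probe sets (0.569%) passed, 95 of them lower. After quantile normalization the difference was -0.026 and after cyclic loess -0.098.

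Cox6c, another small subunit gene of the oxidase, was at 9179, 10155, 9906 and 8260 in saline and at 7815, 7147, 8134 and 7800 in olanzapine, with saline 19 the lowest of its group and just above olanzapine 18. On the log2 scale the difference was -0.27 (SE 0.08), with an unadjusted p of 0.00516 and a limma adjusted p of 0.403, and it was -0.10 after quantile normalization. Cox5a was at 4444 ± 384 in saline and 3869 ± 283 in olanzapine (n = 4 each), a log2 difference of -0.20 (SE 0.09), and olanzapine 18 lay within the saline range.

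Cox7a2l had the smallest spread among saline arrays of the 48 members on the log2 scale (SD 0.015). It was at 2539, 2520, 2482 and 2539 in saline and at 2204, 2345, 2390 and 2326 in olanzapine, without overlap. The log2 difference was -0.12 (SE 0.08), a ratio of 0.921 with a 95% interval of 0.813 to 1.04, and the limma adjusted p of 0.764 rests on a variance moderated towards that of other probe sets. The difference was -0.099 after quantile normalization, and the groups remained apart there, where 1.76% of all probe sets did so in this direction.

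**Figure D2:**
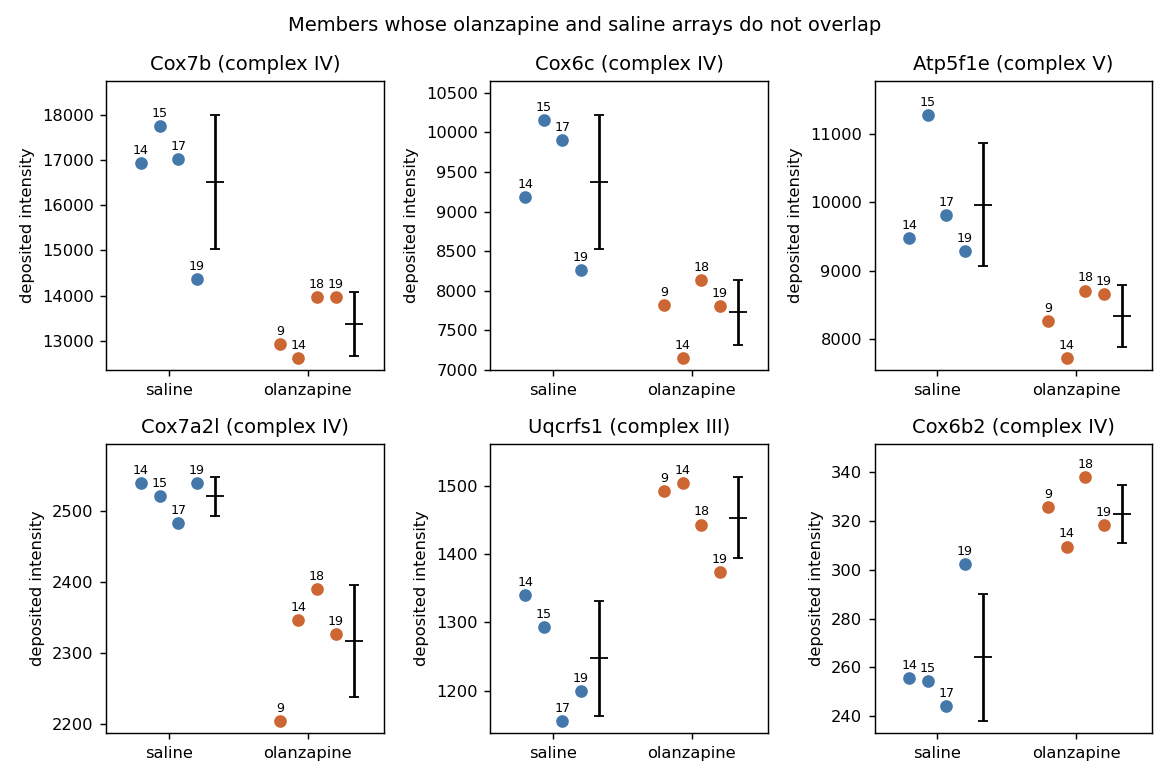
Deposited intensity (y axis, not starting at 0) is plotted for each array, labelled with its number, for the 6 members whose groups did not overlap, with the mean and SD of each group (n = 4) in black. In Cox7b and Cox6c the lowest saline array is saline 19, at 14356 and 8260.

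Besides Cox7b, 4 general forms of complex IV subunits were measured whose tissue form is also a member, and 3 of the 4 were lower in olanzapine. The difference between general and tissue forms was not tested. Cox6a1 differed by -0.095 (SE 0.11), Cox6b1 by -0.13 (SE 0.13) and Cox8a by -0.14 (SE 0.08), while Cox4i1 differed by 0.072 (SE 0.10). Saline 15, at 8023, was the highest Cox6b1 array, against 4812 to 5595 in all others, and without it the difference was 0.026. Cox8a turned to 0.033 after quantile normalization.

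Of the forms known from muscle or testis, the 3 that were tested had positive differences, Cox6a2 turning to -0.010 after cyclic loess. Cox6b2, the testis form, was at 256, 254, 244 and 302 in saline and at 326, 309, 338 and 318 in olanzapine, without overlap, and saline 19 was nearest to olanzapine. Its log2 difference was 0.24 (SE 0.14, limma adjusted p 0.719), and the groups stayed apart after quantile normalization, where 1.97% of all probe sets did so in this direction. Cox7a1, the muscle form of its subunit, differed by 0.21 (SE 0.17) and Cox6a2 by 0.053 (SE 0.26), with olanzapine 9 at 53.4 against 138, 199.5 and 136 in the other olanzapine arrays. Cox4i2, Cox7b2 and Cox8b were removed by the filter, with mean intensities of 96.6 and 104, 44.4 and 21.0, and 58.8 and 100.1 in saline and olanzapine. Cox7a2, the general counterpart of Cox7a1, was among the probe sets with several symbols and was not analysed here. The 3 tested forms were dim, and the medians of all tested probe sets were 0.059 to 0.091 in the 10 dimmest of the 5% classes of brightness, which hold all 3. The remaining probe sets of complex IV were those of Cox5b at -0.12, Cox7c at 0.056 and Cox6c-ps1 at 0.085.

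In complex V 17 of 20 probe sets were lower in olanzapine, with a median of -0.11, and 4 (20.0%) had an unadjusted p under 0.05. These counts stand beside 44.0% and 3.73% of all tested probe sets, and 5 of the 20 lie in the brightest 5%, where the shares were 88.7% and 38.4%. In the F1 head, which makes ATP, all 5 probe sets were lower, from -0.25 for the epsilon subunit gene Atp5f1e to -0.036 for the catalytic beta subunit gene Atp5f1b. Atp5f1e was at 9478, 11281, 9818 and 9283 in saline 14, 15, 17 and 19 and at 8267, 7720, 8708 and 8651 in olanzapine 9, 14, 18 and 19. The groups did not overlap and saline 15 was the highest array. The log2 difference was -0.25 (SE 0.08), with an unadjusted p of 0.00781 and a limma adjusted p of 0.435, and it was -0.063 after quantile normalization. Atp5f1b had a ratio of 0.975 with a 95% interval of 0.844 to 1.13, beside 0.839 with an interval of 0.743 to 0.948 for Atp5f1e, and the difference between these genes was not tested.

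In the membrane part 5 of 7 probe sets were lower, and 4 of the 7 lie in the brightest 5%, where 88.7% of all probe sets were lower. The median of the 7 was -0.13 as deposited and -0.028 after quantile normalization. Atp5mc3, a gene of the rotating c ring, was at 7816, 8929, 7449 and 6526 in saline and at 6235, 6124, 6712 and 6270 in olanzapine. Only olanzapine 18 lay above the lowest saline array, saline 19. Olanzapine minus saline was -0.27 on the log2 scale (SE 0.09, limma adjusted p 0.478), and -0.12 after quantile normalization. Atp5mk, a small membrane subunit gene, was at 9548 ± 833 in saline and 8254 ± 709 in olanzapine (n = 4 each), a log2 difference of -0.21 (SE 0.09) that was -0.028 after quantile normalization. Atp5me, the gene of subunit e, had positive differences in both probe sets, 0.059 (SE 0.11) and 0.19 (SE 0.25).

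The peripheral stalk, which holds the F1 head still, was lower in all 5 probe sets of its 4 genes, and all 5 were also lower after quantile normalization, with a median of -0.086 as deposited and -0.097 then. Of all tested probe sets 44.0% were lower as deposited and 48.9% after quantile normalization. In complex V as a whole 16 of 20 were lower after it, and in the F1 head 4 of 5. Atp5pd, the gene of stalk subunit d, is named after its values were seen. It was at 824, 1449, 1228 and 1169 in saline 14, 15, 17 and 19 and at 869, 1005, 919 and 892 in olanzapine 9, 14, 18 and 19. Saline 14 lay below all olanzapine arrays and the other saline arrays above them all. The log2 difference was -0.30 (SE 0.14), with an unadjusted p of 0.0563 and a limma adjusted p of 0.619. After quantile normalization it was -0.32 with an unadjusted limma p of 0.0443. Atp5pd was the only 1 of the 48 members past that level there, against 2.65% of all tested probe sets in the lower direction. With single arrays left out its difference ran from -0.45 without saline 14 to -0.19 without saline 15. Atp5po, the gene of the subunit that links the stalk to F1, differed by -0.11 (SE 0.08) and -0.054 (SE 0.16) in its 2 probe sets.

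Atp5if1, the inhibitor that keeps the synthase from running backwards, had 3 probe sets that differed in sign. They gave -0.15 (SE 0.12), -0.015 (SE 0.12) and 0.27 (SE 0.19), the last from the dimmest probe set, at 137 ± 17.1 in saline and 179 ± 31.1 in olanzapine (n = 4 each), whose identifier marks probes shared with other transcripts. The remaining 7 genes of complex V, Atp5f1a, Atp5f1c, Atp5f1d, Atp5mf, Atp5mg, Atp5mpl and Atp5pb, differed by -0.18 to -0.056, and Atp5pf by -0.022.

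Brightness moved with the result. Of the 48 tested members 10 lay among the brightest 5% of tested probe sets, and these 10 include 6 of the 7 members lower at an unadjusted p under 0.05, all but Cox5a. Their share, 60.0%, stands beside 38.4% of all 932 probe sets in that class. All 10 were lower, as were 88.7% of the class, and the median was -0.20 for the 10 and -0.15 for the class. Outside it 1 of 38 members (2.63%) was lower at that level, against 1.90% of the other 17693 probe sets, and 22 of 38 were lower whatever the size, against 41.7%. There 1 of the 38 was higher at that level, Uqcrfs1, against 4.79%. The 38 were not spread evenly over the other 5% classes. The brightest of these classes held 11 and the next 8, with medians over all tested probe sets of -0.043 and -0.020. Against the median of its own class, a comparison chosen after seeing the data, 21 of the 38 were below. Across the 48 members the Spearman correlation between mean log2 value and difference was -0.70, which is a description over probe sets of the same 8 arrays, and over all 18625 it was -0.22.

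**Figure D3:**
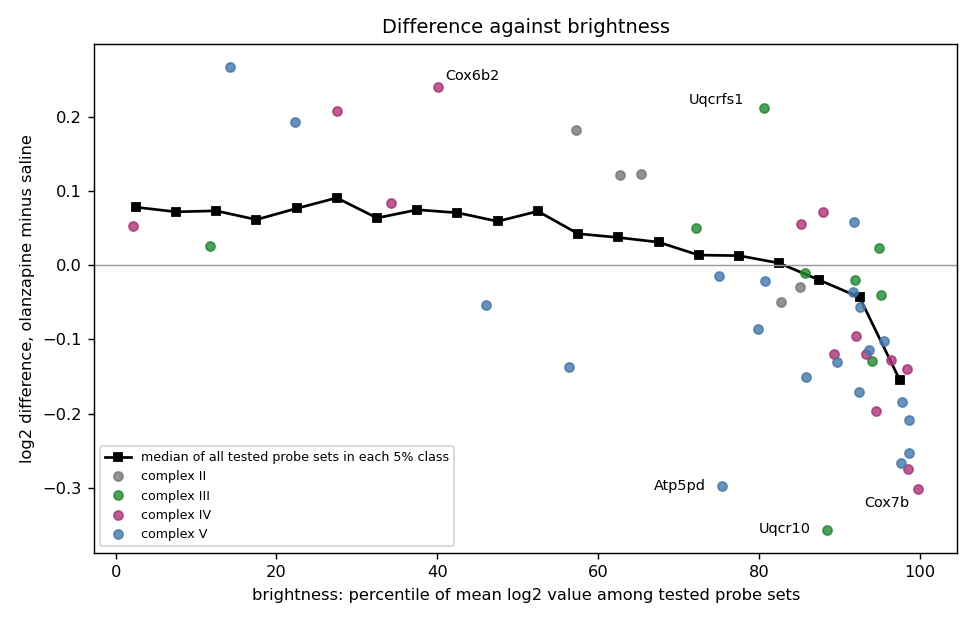
Each tested member (coloured by complex) is placed by its brightness percentile among all tested probe sets (x axis) and its log2 difference of olanzapine minus saline (y axis), and black squares give the median of all tested probe sets in each 5% class. The black line falls to -0.15 in the brightest class, where Cox7b lies at -0.30, while Uqcr10 and Atp5pd lie apart from the line at lower brightness.

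Quantile normalization, which gives all arrays the same distribution of values, made 25 of the 32 lower members less negative or positive. It left 29 of 48 members lower against 48.9% of all tested probe sets. At an unadjusted p under 0.05 it left 1 lower (2.65% of all), and 0 higher (3.73% of all), and the median over members was -0.026. The median of complex IV was then 0.0013 and that of complex V -0.052. With the median of its own brightness class subtracted from each probe set, the median over members was -0.025, with 27 of 48 below their class. Complex V then stood at -0.063, with 15 of 20 below their class, and complex IV at -0.0049, with 7 of 14. That subtraction was chosen after seeing the data.

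Arrays of one group differed among themselves. The median deviation of complex V members from their mean over the 8 arrays was 0.011, 0.20, 0.088 and -0.025 in saline 14, 15, 17 and 19 and -0.089, -0.048, -0.035 and -0.032 in olanzapine 9, 14, 18 and 19. The groups did not overlap, but saline 19 lay next to olanzapine 19, nearer to it than to any other saline array. For complex IV the values were -0.035, 0.13, 0.042 and -0.019 in saline and -0.12, -0.093, 0.060 and -0.023 in olanzapine, with overlap. Complex II and complex III also overlapped. Saline 15 was the highest array for complexes III, IV and V, and without it 26 of 48 members were lower.

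**Figure D4:**
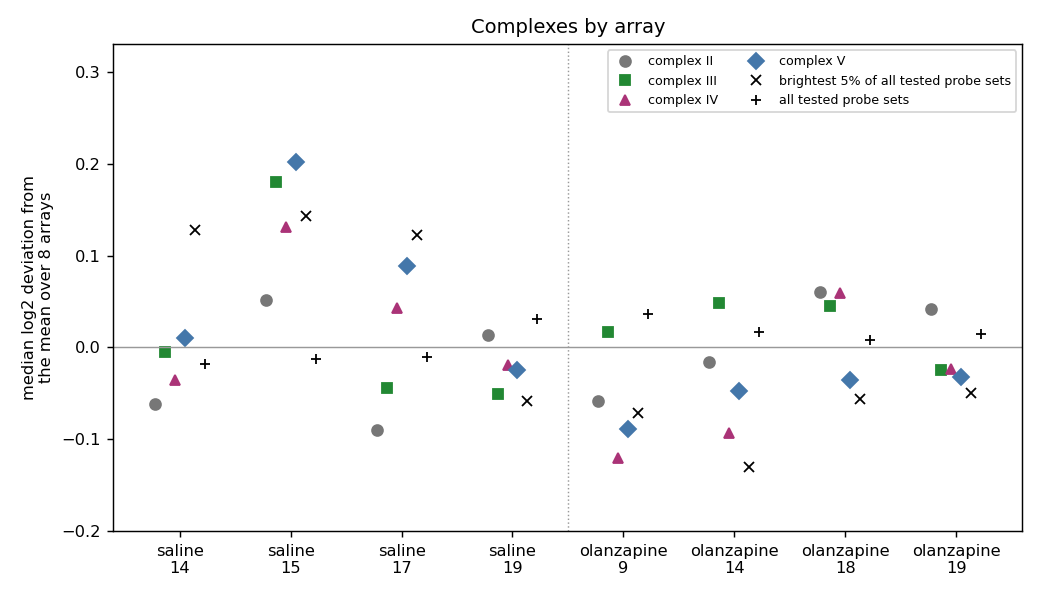
The median log2 deviation of each complex's tested members from their own means over the 8 arrays (y axis) is plotted for each array (x axis), with all tested probe sets (plus signs) and the brightest 5% of them (crosses). Saline 15 is high in complexes III, IV and V, and the crosses of saline 19 lie with those of the olanzapine arrays.

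Other genes of the pathway were counted from lists, with 0 passing the adjusted test in any of them. Beside these counts stand 44.0% of all tested probe sets lower, and 3.73% lower at an unadjusted limma p under 0.05. In the brightest 5% these shares were 88.7% and 38.4%. That class held 2 of the 36 complex I probe sets, 4 of the 17 for carriers and porins and 5 of the 15 for glycolysis. Of 36 tested probe sets for complex I subunits, 23 were lower (63.9%) with a median of -0.083. After quantile normalization 24 were lower, against 48.9% of all tested probe sets, and the median was -0.061. As deposited, 2 (5.56%) were lower at an unadjusted p under 0.05, Ndufb4 at -0.21 (SE 0.08) and Ndufa11 at -0.28 (SE 0.12). Of 45 for assembly factors of complexes II to V, 23 were lower with a median of -0.0047, with Sdhaf2 at 0.76 (SE 0.27) in one probe set and -0.0047 (SE 0.11) in the other, and the supercomplex factor Higd2a at -0.23 (SE 0.09). The first Sdhaf2 probe set, for a factor that helps to attach flavin to Sdha, was dim, at 104 ± 71.2 in saline and 201 ± 14.5 in olanzapine (n = 4 each). Regulators of mitochondrial biogenesis were lower in 6 of 21, with a median of 0.096, and the 2 with the smallest p were Esrrg at -0.28 (SE 0.15), with 0.16 (SE 0.25) in its other probe set, and the mitochondrial RNA polymerase gene Polrmt at 0.29 (SE 0.15). Enzymes around the tricarboxylic acid cycle were lower in 10 of 15, with a median of -0.055, Cs at 0.32 (SE 0.18) and Idh3g at -0.14 (SE 0.09). Mitochondrial carriers and porins were lower in 14 of 17, with a median of -0.072. There the porin gene Vdac1 differed by -0.36 (SE 0.09) as deposited and -0.050 after quantile normalization in one probe set and by 0.073 (SE 0.16) in the other, and Tomm20 by -0.36 (SE 0.16) in one probe set and 0.14 (SE 0.09) in the other. Glycolytic enzymes were lower in 13 of 15, with a median of -0.18 that was -0.052 after quantile normalization, with Tpi1 at -0.34 (SE 0.09) and Pgk1 at -0.22 (SE 0.09) in one probe set and 0.10 (SE 0.13) in the other.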

How the data were processed

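RNA of rat frontal cortex was hybridised to an Affymetrix rat array of 31099 probe sets, 57 of them controls. The deposited values are linear probe set intensities with equal means on all arrays once 2% was trimmed at each end. Which software made them is not given in the sources used here. Member genes carry the symbols of the platform's probe table, and other genes those of a RefSeq gene table of GRCr8. The 25th percentile of all values, 63.4, was added before taking log2, and the dimmest 40% of probe sets by mean log2 value were left out. Groups were compared with limma 3.58.1 in R 4.3.3 (lmFit, eBayes with trend, two-sided, Benjamini-Hochberg over 18625 probe sets). The model was tested on simulated data. Each array stood for 1 rat. Promoters were searched in Python 3.11.15.

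Members, lists and tests were chosen with earlier results of these data known. Named genes were, in each complex, the 3 with the smallest unadjusted p, those whose groups did not overlap, those with 2 or more tested probe sets, the general and tissue isoforms of complex IV, the inhibitor Atp5if1 and the 2 genes of each other pathway list with the smallest p. Sdha, Atp5f1b and Atp5pd are described singly although this rule did not name them. The other members are given as the remaining genes of their complex. Alternatives changed the scaling, pseudocount, filter, array weights, probe set choice, a block on the number in the array title and the arrays included. The number of arrays limits the precision.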

Additional observations from a re-analysis of the deposited data

Results flagged for a closer look

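In 2 members of the named genes 1 array of a group of 4 stood far from the other 3 by Dixon's criterion. Of 64 such groups of 4 for the named genes 2 did so, and over all 102 groups of member probe sets 5 did (4.90%), where chance gives about 1 in 20. Olanzapine 19 was the lowest olanzapine array in a probe set of Atp5if1, at 885 against 1036 to 1059 in the other olanzapine arrays. The same array was the highest in the brighter probe set of Atp5me, at 3667 against 2936 to 2992.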

How the results depend on the processing

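Counts are of members unless said otherwise, and a median counts as moved when it shifted by more than the SD between arrays of a group. No member passed an adjusted p of 0.05 under any alternative with all 8 arrays, and with 1 array left out the count ran from 0 to 1, the 1 being Cox7b without saline 19. At an unadjusted p under 0.05 the 7 lower members became 1 after quantile normalization and 3 after cyclic loess. After median centring there were again 7, not all the same genes, beside 4.25% of all tested probe sets. Under median centring 35 of 48 members were lower, and the median over members was -0.10. The 1 higher member at this level became 0 after quantile normalization, median centring and cyclic loess. Median centring moved the median of all tested probe sets from 0.027 to -0.025 and raised the share of lower ones among all those at this level from 44.9% to 61.6%. With 1 array left out the lower count ran from 4 to 9, at 4 without saline 15, olanzapine 9 or olanzapine 14, and the higher count from 0 to 1, at 0 without saline 17, saline 19, olanzapine 9, olanzapine 14 or olanzapine 18. Groups that did not overlap, 4 lower and 2 higher as deposited, were 1 lower after quantile normalization (Cox7a2l), 2 lower after cyclic loess (Cox7a2l and Cox7b), and 0 lower and 1 higher after median centring (Cox6b2). The complex IV median of -0.11 was 0.0013 after quantile normalization, -0.014 after cyclic loess and -0.0049 with the brightness class subtracted. The complex II median of 0.12 was 0.047 with 1 probe set per gene, and from 0.031 to 0.16 with 1 array left out. The causes were not tested. Named genes kept their side of the threshold in all settings run, except Cox7b, and sign changes touched only values whose unadjusted p was 0.05 or more in both fits. The brightness class subtraction and a run without Cox6c-ps1 and Cox7a2l, which left the counts at an unadjusted p under 0.05 and the median over members as they were, were chosen after seeing the data.

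The numbers 14 and 19 occur in both groups, and the labels do not say that such arrays belong together. For that reason the numbers were not taken to pair the arrays. Deviations of same-numbered arrays correlated at 0.075 and 0.11, which cannot decide it without the values of other pairs beside them. With the number as a replicate block, the difference rests only on saline 14 and 19 and olanzapine 14 and 19. All other arrays have a number that occurs in 1 group only and add nothing to it. In that fit 0 lower and 0 higher members had an unadjusted limma p under 0.05. The medians were -0.024 for complex IV and -0.030 for complex V, with 1 residual degree of freedom per probe set before moderation.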
